A study of Mus musculus with 7 samples.

Results

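Thymocytes that lack LAT were compared with wild-type (WT) thymocytes at the stage before β-selection. The Lat-KO library held double-negative 3 (DN3) cells without surface γδ T cell receptor (TCR), written DN3 γδ−, and the WT library held DN3a cells. Transcripts had been counted as unique molecular identifiers (UMIs, which tag single mRNA molecules) in single cells. A barcode was taken as a thymocyte when it had at least 1000 detected genes, at most 10% of its UMIs from mitochondrial (mt-) genes and at most 1 UMI of the 3 B cell genes Cd79a, Cd79b and Ms4a1. That left 6298 of 8691 Lat-KO barcodes and 6259 of 10078 WT barcodes, 12557 in all, of 66446 thymocyte barcodes chosen the same way in all 7 libraries of the study.

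DN thymocytes have neither CD4 nor CD8. At DN3 they rearrange the Trb, Trg and Trd genes, and a cell that makes a TCRβ chain pairs it with the pre-TCRα chain into a pre-TCR. LAT is a membrane adaptor that the kinases of the TCR pathway phosphorylate and that assembles the complexes leading to calcium, Ras and MAP kinase signals. Without it the pre-TCR signals poorly and αβ development is blocked at DN3.

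The WT cells came from pooled thymi of C57BL/6 mice of both sexes at 6 to 8 weeks of age, and were sorted as CD44-low CD25+ CD71-low after magnetic depletion of CD4+ and CD8+ cells. The Lat-KO cells came from pooled thymi of mice of genotype Lat-/-TCRd-H2BEGFP on C57BL/6. The sources used here give 6 to 8 weeks for the study as a whole and no separate age for these mice. The Lat-KO cells were sorted as CD44-low CD25+ γδ− without that depletion and with no limit on CD71. The reporter allele joins Trdc, the constant gene of the TCRδ chain, to a nuclear green fluorescent protein, and only the Lat-KO mice carried it. Both libraries were spiked with 500 splenic B cells, and whether both portions came from the same mice is not given. There was 1 library on each side. Genotype, reporter allele, library, depletion and gate therefore cannot be told apart, no difference was tested, and the 95% intervals given here cover counting error only.

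Depth was close in the 2 libraries. Thymocytes held 49842956 UMIs in Lat-KO and 50856437 in WT, with medians of 7000 and 7387 UMIs and of 2566 and 2360 genes a barcode. The Lat-KO library shared 28 barcode sequences with the WT DN3a library, of which 21 were Lat-KO thymocytes. The libraries also differed in RNA composition, and did so in both cell types. Ribosomal protein genes took 25.7% of thymocyte UMIs in Lat-KO and 30.6% in WT, against 28.3% and 33.8% in B cells. The rRNA-derived features Gm42418 and AY036118 took 0.0544% and 0.813%, against 0.0608% and 1.36% in B cells.

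Both libraries held T-lineage cells. All 10 T cell markers were measured in thymocytes (at least 10 CPM, the UMIs of a gene scaled to a fixed library total, in 1 of the libraries), with a median log2 ratio of Lat-KO over WT of 0.42 and none at a 2-fold difference. Their summed level was 13353 CPM in Lat-KO and 11314 CPM in WT. Ptcra, which encodes the pre-TCRα chain, and Il2ra, which encodes the CD25 used in both gates, were high in both. Of 9 markers of double-positive (DP) and single-positive (SP) stages 3 were measured, with summed levels of 1707 and 1153 CPM, but the defining genes were near 0, with Cd4 at 0.542 and 0.295 CPM and Cd8a at 0.0201 and 0.059 CPM. Of 10 B cell markers 5 were measured, their median log2 ratio was 0.32, and the list summed to 288 CPM in Lat-KO and 211 CPM in WT thymocytes against 41900 and 29807 CPM in the B cells. Myeloid markers summed to 194 and 153 CPM, with 1 of 2 measured genes, Lyz2, past 2-fold at 44.5 and 19.4 CPM (2.85% of all measured genes were past 2-fold higher). S100a8 and S100a9 were at 0 and Csf1r at 0.0201 and 0.0197 CPM. NK markers summed to 459 and 371 CPM, with 2 of 7 measured, Gzma and Nkg7, and with Ncr1, Klrd1 and Eomes at 0 in both libraries. Plasmacytoid markers summed to 2520 and 3043 CPM (5 of 7 measured, Klk1 at 0), thymic stroma markers to 197 and 214 CPM (2 of 8 measured, Col3a1 and Pdgfra at 0), and the 5 erythroid markers, none of them measured, to 1.52 and 0.177 CPM. None of these lists but the myeloid one had a measured member past 2-fold, and what they contribute to the results was not tested.

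Lat itself was almost absent from the Lat-KO library. Lat (ENSMUSG00000030742, chromosome 7, 126363824 to 126369570 on the minus strand, mm10) had 240 UMIs or 4.82 CPM (4.23 to 5.46) in Lat-KO and 32725 UMIs or 643 CPM (637 to 650) in WT. The log2 ratio was -7.06 (-7.25 to -6.88), a 134-fold lower level, and 0.748% of the WT level remained. Of the Lat-KO barcodes 6066 had no Lat UMI, 225 had 1, 6 had 2 and 1 had 3, whereas 4396 WT barcodes had at least 4 and 96 had none. When every barcode was thinned to 3000 UMIs, 1.59% of 6207 Lat-KO barcodes (1.30 to 1.94) and 84.7% of 6185 WT barcodes (83.8 to 85.6) had a Lat UMI. Unthinned, the shares were 3.68% and 98.5%. In the spiked B cells, which should lack Lat, it was found at 3000 UMIs in 0 of 117 Lat-KO and in 10 of 76 WT barcodes. Median depths over all B cell barcodes used, including those under 3000 UMIs, were 3357 and 3554 UMIs. Of the 6298 Lat-KO thymocytes 125 had a barcode also found in a WT library, and they held 6 of the 240 Lat UMIs. In WT, Lat stood at 468 CPM in DN3b γδ− and 383 CPM in DN3b γδ+, and at 357 and 396 CPM in the matching DN4 libraries. In Lat-KO DN3 γδint, which has an intermediate level of surface γδ TCR, it had 0.891 CPM.

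Trdc was the other edited locus. Trdc (chromosome 14, 54142851 to 54148868, mm10) had 24 CPM in Lat-KO and 315 CPM in WT, a log2 ratio of -3.71. The reporter transcript, counted as a feature of its own, had 30.5 CPM in Lat-KO and 0 UMIs in WT, which allows up to 0.0596% of the 6185 WT barcodes a UMI at 3000 UMIs and sets no limit on cells with the transcript. Trdc and the reporter together reached 54.6 CPM in Lat-KO and the log2 ratio was then -2.53. A UMI of Trdc was seen in 7.23% of Lat-KO and 46.7% of WT barcodes at 3000 UMIs, and one of the reporter in 8.57% of Lat-KO barcodes. In B cells Trdc was seen in 0% of Lat-KO and 5.26% of WT barcodes.

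Most genes differed little. Among the 8064 measured genes, 230 were at least 2-fold higher in Lat-KO (2.85% of those measured) and 48 were at least 2-fold lower (0.595%). The median log2 ratio was 0.24 and 6057 genes lay above 0, so the ratios below are to be read against 0.24 and not against 0. Scaling by trimmed means (TMM) moved every ratio by -0.21 and the median to 0.03, and the counts became 130 higher (1.61%) and 97 lower (1.20%). The share of higher genes among all past 2-fold was 82.7% as scaled here and 57.3% with TMM.

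The spiked B cells gave a check of each gene within the same pair of libraries. The barcodes with at least 5 UMIs of the 3 B cell genes numbered 236 in Lat-KO and 130 in WT, but 84 and 35 of them also had more than 2 UMIs of Cd3d, Cd3e, Cd3g and Ptcra together. Without those, 152 and 95 B cell barcodes with 593514 and 385317 UMIs remained, and these serve as the B cells unless said otherwise. Of the 278 genes past 2-fold, 86 had at least 20 UMIs in both B cell pools together. The B cell interval lay wholly on the same side as the thymocyte difference for 34 of 64 higher and 14 of 22 lower genes, and of these 48 the difference in thymocytes had an interval apart from that of B cells for 17. For 11 higher and 3 lower genes the B cell interval did not lie on that side and was apart from the thymocyte one. With all barcodes of at least 5 B cell UMIs the numbers were 82 of 149 and 22 of 33. The same counts are not given for genes under 2-fold, so they do not show whether genes past 2-fold differ from others in this. Differences that B cells shared included AY036118 (24.1 and 1214 CPM in thymocytes, log2 ratio -5.66 and in B cells -6.22), Eef2, the translation elongation factor (1677 and 726 CPM, 1.21 and 1.28), and Bak1, a pro-apoptotic BCL2 family member (60.1 and 28.7 CPM, 1.07 and 1.32). The other 192 genes past 2-fold had too few B cell UMIs for the check. The B cell barcodes kept UMIs of genes that B cells should lack, such as Lat (1 in Lat-KO, 15 in WT). For such genes the check cannot separate B cell transcripts from thymocyte RNA, so a shared side says little there.

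**Figure D1:**
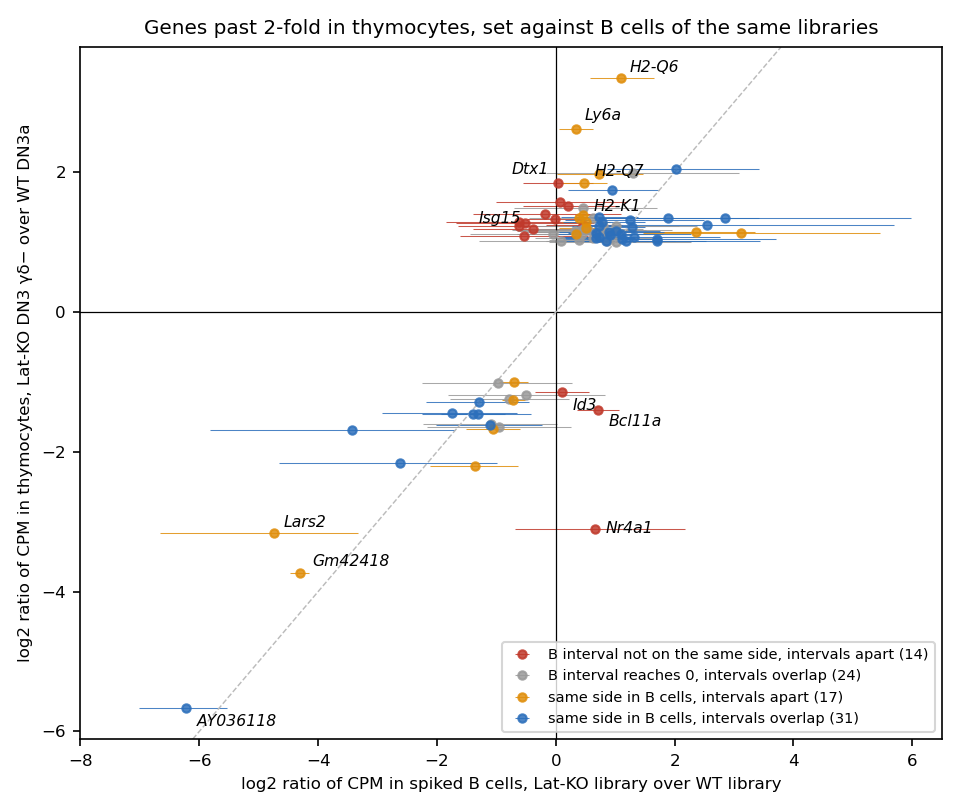
Log2 ratio of Lat-KO over WT in thymocytes (y axis) against that in the spiked B cells of the same libraries (x axis) for the 86 genes past 2-fold in thymocytes with enough B cell UMIs, with 95% intervals of counting error in B cells and colours by how the intervals lie. Genes near the dashed diagonal, such as AY036118 at -5.66 and -6.22, differed as much in B cells, and Nr4a1, Id3, Dtx1 and Isg15 lie away from it.

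The proximal genes of the TCR pathway, which act before, with or after LAT, were present in both libraries. Of 37 proximal signalling genes 35 were measured, none was past 2-fold in either direction, and their median log2 ratio was 0.32 beside 0.24 over all genes. Cd3e, a signalling chain of the TCR complex, had 1312 CPM in Lat-KO and 736 CPM in WT (log2 ratio 0.83, 0.82 to 0.85). Lck, the kinase that starts the cascade, had 1315 and 867 CPM (0.60). Cd3d and Cd3g, the other CD3 chains, had log2 ratios of 0.48 and 0.38. Zap70, the kinase that phosphorylates LAT, had 17.1 and 14.5 CPM (0.24), and Lcp2, which encodes SLP-76, the adaptor that LAT recruits through GADS, had 72.1 and 79.3 CPM (-0.14).

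Genes that TCR or pre-TCR signals induce gave 3 lower members (0.595% over all genes) and no higher one among 17 measured of 38, with a median log2 ratio of -0.27 beside 0.24 over all genes. The 3 were Nr4a1, Id3 and Rgs1. Nr4a1, the immediate-early gene that encodes NUR77, had 1.40 CPM in Lat-KO and 12 CPM in WT (log2 ratio -3.10, -3.48 to -2.74). In B cells it had 17 and 7 UMIs, a log2 ratio of 0.66 (-0.69 to 2.17), apart from that of thymocytes. Across the WT libraries Nr4a1 was highest in the γδ+ cells, with 85.7 CPM in DN3b γδ+ and 98.6 in DN4 γδ+, and it had 8.27 CPM in DN3b γδ−, 16.6 in DN4 γδ− and 0.837 in Lat-KO DN3 γδint. Both Lat-KO libraries thus held less than any WT library.

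Id3, an inhibitor of E proteins that TCR signals raise through EGR factors, had 16.8 CPM in Lat-KO and 36.9 CPM in WT (-1.14, -1.26 to -1.02) against a B cell log2 ratio of 0.10 (-0.35 to 0.56). WT DN3b and DN4 cells had 91.7 and 121 CPM of Id3 when γδ− and 350 and 477 CPM when γδ+, and Lat-KO DN3 γδint had 44.8 CPM. DN3a was thus the lowest of the WT libraries and lay below DN3 γδint. Rgs1, a regulator of G protein signalling, had 10.8 and 22.8 CPM (-1.09), with 2 UMIs in each B cell pool. Rgs1 was lower still in WT DN3b γδ− at 0.855 CPM and in WT DN4 γδ− at 1.20 CPM.

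The other measured members of the list did not reach 2-fold. Egr1, an immediate-early transcription factor, had 13.5 and 24.6 CPM (-0.86), with 11 and 1 UMIs in B cells, too few for the check. Myc, which drives growth after selection, had 54.9 and 98.1 CPM (-0.84). Fos and Junb had log2 ratios of -0.38 and -0.32 in thymocytes and of 1.35 and 1.26 in B cells. Cd69, an early activation marker, had 102 and 77.8 CPM (0.40). Cd27, of the tumor necrosis factor receptor superfamily and raised at selection, had 220 and 200 CPM (0.14). Slamf6 had the highest ratio of the measured members, at 123 and 70.3 CPM (0.81). Nr4a2, of the same family as Nr4a1, had 27.3 and 23.2 CPM (0.24). With TMM scaling or scaling to the B cell pool of the rule, 5 members of the list were past 2-fold lower (97 and 92 of 8064 over all genes). With no minimum level 11 members were lower and 1 higher, beside 739 and 996 of 14398 over all genes. Among those under the minimum, Etv5, an ETS factor, had 0.0602 and 1.26 CPM, Nab2, an EGR corepressor, had 0.301 and 3.11 CPM, Egr2 had 0.181 and 0.846 CPM, and Cd5, a negative regulator of TCR signals, had 1.89 and 4.76 CPM. The higher one was Xcl1, with 25 and 12 UMIs (1.09, 0.04 to 2.22).

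**Figure D2:**
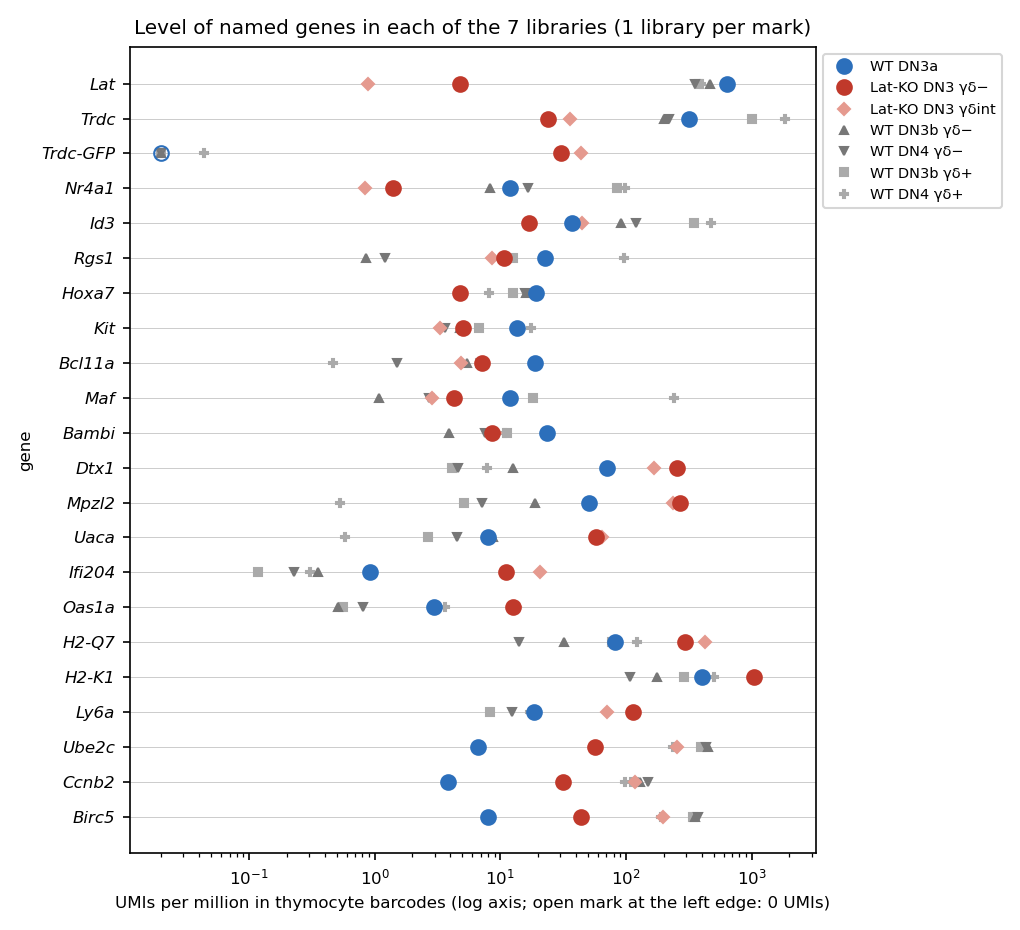
Levels in CPM (log x axis) of named genes (y axis) in the thymocytes of all 7 libraries, with 1 mark a library and no replicates. Nr4a1 is lowest in both Lat-KO libraries (1.40 and 0.837 CPM), and Dtx1 is highest there (255 and 167 CPM).

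Of 33 genes of the Notch and DN3 programme 29 were measured, with a median log2 ratio of 0.33. Dtx1 was past 2-fold on the higher side (2.85% over all genes) and no gene was past it on the lower side. Dtx1, a direct Notch target, had 255 CPM in Lat-KO and 70.5 CPM in WT (1.85, 1.80 to 1.91), while B cells had 66 and 42 UMIs and a log2 ratio of 0.03 (-0.55 to 0.62). Past DN3a, the WT libraries had 12.7 CPM (DN3b γδ−), 4.58 CPM (DN4 γδ−), 4.10 CPM (DN3b γδ+) and 7.85 CPM (DN4 γδ+) of Dtx1. Lat-KO DN3 γδint had 167 CPM, so both Lat-KO libraries lay above all 5 WT ones.

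The receptors and other targets of the programme differed less. Notch1 had 538 and 454 CPM (0.24), the same ratio as the median gene, and Notch3 had 226 and 148 CPM (0.61). Ptcra had 716 and 412 CPM (0.80) and Il2ra had 858 and 612 CPM (0.49). Rag1, a subunit of the V(D)J recombinase, had 466 and 456 CPM (0.03). Hes1, a Notch target that represses transcription, went the other way at 351 and 562 CPM (-0.68). The B cell barcodes had 30 and 36 UMIs of Hes1, the same order (-0.89, -1.64 to -0.15). Whether those UMIs came from B cells or from thymocyte RNA was not tested. Tcf7, which encodes TCF1, had 305 and 447 CPM (-0.55). Of the targets under the minimum level, Heyl had 2.73 and 1.04 CPM (1.39, 0.92 to 1.87) and Nrarp had 5.86 and 3.74 CPM (0.65).

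Genes of earlier progenitors were mostly too low to measure, with 10 of 30 measured, 1 higher (2.85% over all genes), 3 lower (0.595%) and a median of 0.27. Hoxa7, a homeobox factor of progenitors, had 4.75 and 19.4 CPM (-2.03), and all 5 WT libraries (8.13 to 19.4 CPM) were above both Lat-KO libraries, which had 4.75 CPM each. Kit, the stem cell factor receptor lost at the DN2 to DN3 step, had 5.04 and 13.5 CPM (-1.42). Bcl11a, a factor of lymphoid progenitors and B cells, had 7.18 and 18.9 CPM (-1.40), while B cells had the opposite order, with 237 and 94 UMIs and a log2 ratio of 0.71 (0.36 to 1.07). Ly6a, which encodes SCA-1 and is also an interferon target, was the higher member with 114 and 18.5 CPM (2.62), and B cells showed a smaller difference on the same side, with 314 and 161 UMIs (0.34, 0.06 to 0.62).

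The genes of β-selection and DN4 had no member past 2-fold among 14 measured of 24 and a median of -0.02, with members from -0.89 to 0.97. With TMM scaling or scaling to the B cell pool of the rule 2 of them were past 2-fold lower (97 and 92 of 8064 over all genes). Spats2 had 24.4 and 45.2 CPM (-0.89), Ccr9, the chemokine receptor of the thymic CCL25 response, had 102 and 181 CPM (-0.83), and Tfrc, which encodes the CD71 used in the WT gate only, had 20.4 and 31.4 CPM (-0.62). On the other side, Ndrg1 had 81.9 and 41.8 CPM (0.97) and Nrp1, a semaphorin coreceptor, had 38.7 and 20 CPM (0.95). Of the members under the minimum level, Cd8b1 had 7 and 62 UMIs (-3.12, -4.49 to -1.99) and Trac had 10 and 60 (-2.56). The study names Cd8b1 as the only hallmark of early αβ specification. Mxd3, with 366 and 62 UMIs (2.59), and Cd81, with 249 and 127 (1.0), were higher. The others with a ratio ran from -0.36 (Cd2) to 0.88 (Cd4). The γδ TCR-induced signature, of which 14 genes were taken here and which the study chose on other libraries of the same series (DN3b γδ+ against DN3b γδ−), had 6 of 14 genes measured and none past 2-fold, with a median of -0.04. Sox13, a factor of γδ T cells, had 18.8 and 10.9 CPM (0.79) and Clec2d had 59.4 and 97.1 CPM (-0.71). Under the minimum level, the signature members Etv5 and Cd5 had log2 ratios of -4.39 (-6.70 to -2.77) and -1.34 (-1.69 to -0.99). Its other members there ran from -0.94 (Pdcd1) to 0.16 (Cd6). Of 8 markers of the γδ T lineage 4 were measured, and Trdc and Maf were past 2-fold lower (0.595% over all genes). The list summed to 64.4 and 355 CPM, and without Trdc, the edited locus, to 40.3 and 40.6 CPM. Maf, a factor of the IL-17-producing γδ lineage, had 4.25 and 12 CPM (-1.49).

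Transcripts of the receptor loci were also set side by side, without a correction for reads of near-identical segments, which the counting could split. Of 7 constant genes 6 were measured, Trdc was the lower one (0.595% over all genes) and the median was 0.08. The Trb constant genes summed to 2455 CPM in Lat-KO and 3419 CPM in WT (-0.48, -0.49 to -0.47) and the Trg constant genes to 2208 and 1465 CPM (0.59, 0.58 to 0.61), so the 2 loci went in opposite directions. The B cell barcodes held 53 and 66 UMIs of the Trb constant genes (-0.94) and 22 and 42 of the Trg ones (-1.56). Both were thus lower in Lat-KO there. B cells should lack these transcripts, so the counts give no B cell check of either locus. Variable segments were lower at all of the loci with enough UMIs. Trbv segments summed to 5.92 and 13.7 CPM from 295 and 698 UMIs (-1.21, -1.41 to -1.02), Trg V segments to 125 and 263 CPM (-1.08), and Trdv segments to 1.73 and 6.63 CPM (-1.94). Trac, transcribed at the DP stage, had 0.201 and 1.18 CPM. The libraries are 3′ ones, in which a segment far from the poly(A) site is seen poorly.

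**Figure D3:**
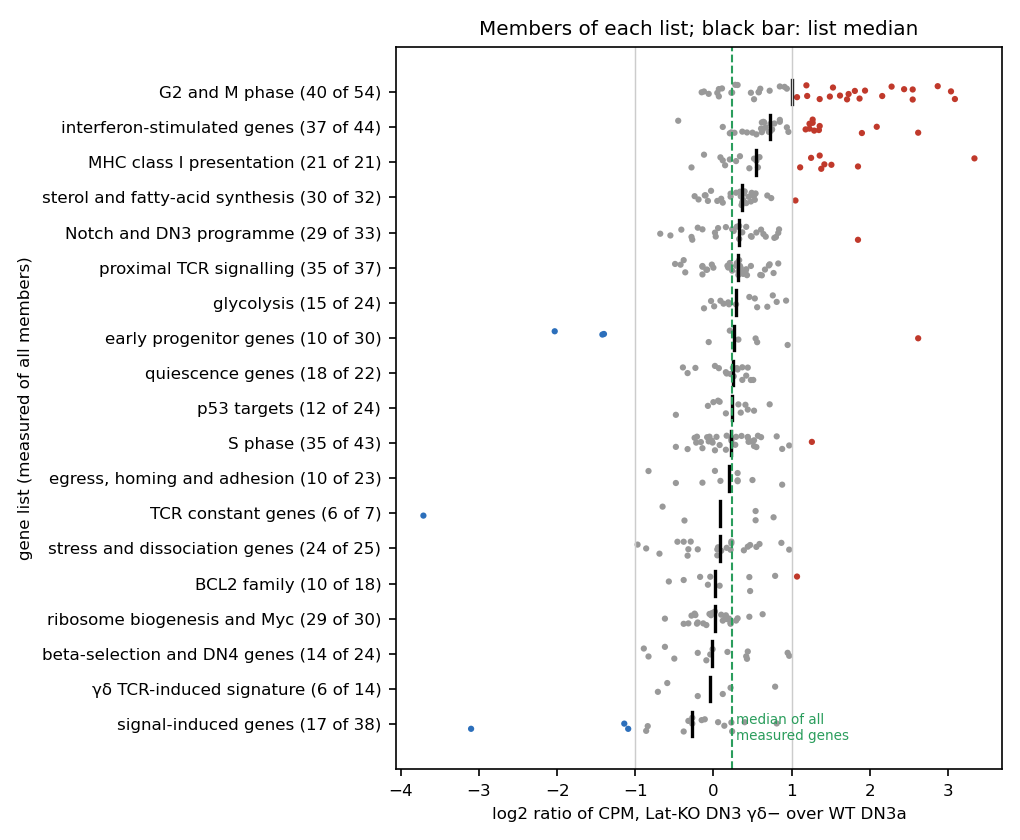
Log2 ratio of Lat-KO over WT of each measured gene (points, coloured where past 2-fold) and the median (black bar) for the 19 gene lists, with the dashed line at 0.24 marking the median over all measured genes. The medians of the G2 and M phase, interferon and MHC class I lists are 1.0, 0.73 and 0.55, and the lowest is -0.27 for the signal-induced genes.

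Mitotic genes made up much of the top of the ranking. Of 54 G2 and M phase genes 40 were measured, 20 were past 2-fold higher (2.85% over all genes), none was past 2-fold lower, and the median log2 ratio was 1.0. Ube2c, the ubiquitin-conjugating enzyme of the anaphase-promoting complex, had 56.4 CPM in Lat-KO and 6.65 CPM in WT (3.09, 2.92 to 3.25). Ccnb2, a B-type cyclin, had 31.5 and 3.83 CPM (3.04), Plk1, the polo-like kinase of mitotic entry, had 10.1 and 1.36 CPM (2.89), and Birc5, which encodes survivin, had 43.6 and 8.00 CPM (2.44). Mki67, which encodes the proliferation marker Ki-67, had 47.3 and 10.6 CPM (2.16). These are low levels for the stage series, since Ube2c had 238 to 452 CPM in the 4 WT libraries past DN3a and 253 CPM in Lat-KO DN3 γδint.

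S phase genes did not follow. Of 43 genes 35 were measured, with a median of 0.23 and 1 past 2-fold higher (2.85% over all genes), Rrm2, the small subunit of ribonucleotide reductase, at 33.4 and 14 CPM (1.26). Pcna, the sliding clamp of DNA replication, had 107 and 149 CPM (-0.48) and Mcm6, a subunit of the replicative helicase, had 172 and 153 CPM (0.17). The 24 genes of a core cycling list gave 16 higher of 22 measured (2.85% over all genes) and a median of 1.76, while they summed to 97.7 CPM in Lat-KO and 90.8 CPM in WT in the B cells.

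Cycling barcodes were then counted. At 3000 UMIs a barcode, 37.2% of 6207 Lat-KO barcodes (36.0 to 38.4) and 32.5% of 6185 WT barcodes (31.4 to 33.7) had at least 2 UMIs of the core list, against 3.42% and 3.95% of B cell barcodes. That limit is a range and not a type of cell, since 1913 and 1921 barcodes had 1 UMI and 1090 and 1093 had 2, and since Uhrf1, a member of the list, was at 203 and 204 CPM in the 2 libraries. At a limit of 7 UMIs, chosen after the values had been seen, the shares were 4.77% (4.25 to 5.33) and 1.78% (1.46 to 2.14), or 296 and 110 barcodes, and none of 117 and of 76 B cell barcodes passed. The gates differ here, as CD71, a marker of proliferating thymocytes, was limited in WT only. How far the gate accounts for the shares was not tested.

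The barcodes with at least 7 UMIs had median depths of 16944 and 15076 UMIs. Within them the G2 and M list summed to 12282 CPM in Lat-KO and 8235 CPM in WT, and the S phase list to 6563 and 7305 CPM. These sums describe barcodes that the same genes had chosen. Ube2c had 512 and 152 CPM there. In the barcodes under 7 UMIs the G2 and M list summed to 2354 and 2322 CPM and the S phase list to 1751 and 1841 CPM. Barcodes with few core UMIs hold less of these genes by construction, since the genes sort the barcodes. Over barcodes with 0 or 1 UMI of the core list, 17 of the 20 G2 and M genes were below the minimum of 10 CPM, so that no gene counted as past 2-fold, and the 19 genes of the list that kept the minimum had a median log2 ratio of 0.04. Below the minimum, Ube2c had 3.04 and 0.889 CPM (1.77) and Ccnb2 2.48 and 0.828 CPM (1.58), and Birc5 and Cdca3 had ratios of 1.98 each. Rrm2 had a log2 ratio of -0.45 and Ccna2, which encodes cyclin A2, one of -0.10 against 2.44 over all barcodes. Under 7 core UMIs, where barcodes with 2 to 6 are included, Ccnb2 had 9.66 and 1.70 CPM (2.51). These genes had been picked for being higher over all barcodes, so their ratios here do not stand for the list. With every barcode thinned to 3000 UMIs, so that deep barcodes weigh no more than others, 11 G2 and M genes were past 2-fold. Over all genes 261 of 8091 were then past 2-fold higher.

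**Figure D4:**
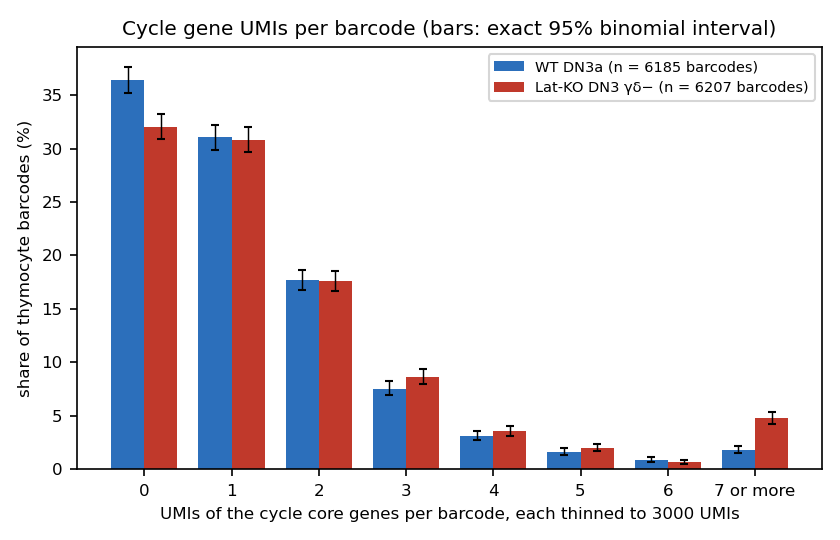
Share of thymocyte barcodes (y axis, %) by the number of UMIs of the 24 core cycling genes (x axis) at 3000 UMIs a barcode, in Lat-KO (n = 6207) and WT (n = 6185), with exact 95% binomial intervals. The share at 1 UMI is 30.8% in Lat-KO and 31.1% in WT, and at 7 or more it is 4.77% and 1.78%.

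A part of the interferon-stimulated genes was higher in Lat-KO. Of 44 genes 37 were measured, 11 were past 2-fold higher (2.85% over all genes) and none lower, and 36 lay above 0. The median log2 ratio was 0.73 (0.72 without cycling barcodes and 0.52 with TMM scaling). With TMM scaling 10 were past 2-fold, beside 1.61% higher over all genes. Isg15, a ubiquitin-like modifier, had 210 CPM in Lat-KO and 92.4 CPM in WT (1.18, 1.13 to 1.23) and a B cell log2 ratio of -0.39 (-1.40 to 0.63). Irf7, the transcription factor that amplifies type I interferon responses, had 29.5 and 11.6 CPM (1.35), and its B cell ratio of 0.62 (-0.45 to 1.78) overlapped. Oas1a and Oasl2, of the family of double-stranded RNA sensors, had 12.6 and 2.97 CPM (2.09) and 41.0 and 11.0 CPM (1.90), with too few B cell UMIs for the check. Igtp, a GTPase induced by interferon γ, had 64.3 and 26.4 CPM (1.29) and a B cell ratio of -0.62. Bst2, the tethering factor also used as a plasmacytoid marker, was the member below 0, with 402 and 550 CPM (-0.45).

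Across the libraries, the 11 members past 2-fold summed to 736 CPM in Lat-KO DN3 γδ− and 541 CPM in Lat-KO DN3 γδint, to 271 CPM in WT DN3a, and to 124, 91.5, 123 and 313 CPM in the γδ− and then the γδ+ cells of WT DN3b and DN4. In the B cells of the same libraries the sums were 849 and 838 CPM for Lat-KO and, in that order, 693, 743, 468, 447 and 599 CPM for WT. Both Lat-KO libraries thus lay above all WT ones in B cells too, but few genes carried these sums. Ly6a and Tap1 held 314 and 76 of the 504 B cell UMIs in Lat-KO DN3 γδ−, and 161 and 30 of the 267 in WT DN3a. Between those pools Isg15, Igtp and Gbp3 had log2 ratios below 0 (-0.39, -0.62 and -0.52), and Irf7 and Rtp4 above 0 (0.62 and 1.02). These 11 genes were picked for being higher in Lat-KO DN3 γδ− than in WT DN3a, so the sums say little of the list as a whole. Over all 43 listed genes found in the files, thymocytes had 4825 CPM in Lat-KO DN3 γδ−, 4918 in Lat-KO DN3 γδint and 3696 in WT DN3a, and the other WT libraries had 2041 to 3188 CPM. In B cells the same sum was 6087 and 6228 CPM in the Lat-KO libraries and 4786 to 6202 CPM in the WT ones, so that the ranges overlapped.

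Of the genes of MHC class I presentation, some heavy chains stood out. All 21 were measured, 8 were past 2-fold higher (2.85% over all genes), none lower, and the median was 0.55. H2-K1 and H2-D1, the classical class I heavy chains, had 1051 and 404 CPM (1.38, 1.35 to 1.40) and 844 and 391 CPM (1.11), and in B cells they had smaller log2 ratios on the same side, 0.46 (0.32 to 0.61) and 0.34. Of the nonclassical Qa genes, H2-Q6 had 35.6 and 3.5 CPM (3.34), H2-Q7 had 293 and 81.5 CPM (1.85) and H2-Q4 had 92.8 and 32.6 CPM (1.51), with B cell ratios of 1.10, 0.47 and 0.21. These genes are near-identical copies between which reads may have been split, so their separate values are uncertain. Tap1, a subunit of the peptide transporter, had 109 and 42.4 CPM (1.36) and B cells shared the difference at 0.72 (0.09 to 1.38). Nlrc5, the transactivator of class I genes, had 13.1 and 4.92 CPM (1.42). B2m, the light chain of class I molecules, had 1726 and 1259 CPM (0.46), and in B cells the order was the opposite (-0.54, -0.72 to -0.36). The immunoproteasome subunits Psmb8 and Psmb9 had log2 ratios of 0.12 and 0.21, under that of the median gene, and H2-T23, another nonclassical heavy chain, had 49.6 and 60.2 CPM (-0.28).

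Over all 21 class I genes, thymocytes had 7642 CPM in Lat-KO DN3 γδ−, 8488 CPM in Lat-KO DN3 γδint and 5093 CPM in WT DN3a, and the other WT libraries had 2902 to 5498 CPM. B cells had 7968 and 10193 CPM in the Lat-KO and 6135 to 7363 CPM in the WT libraries, so both Lat-KO pools lay above all WT ones. How far the smaller ribosomal share of the Lat-KO libraries, smallest in DN3 γδint, raised these sums was not tested. The 8 members past 2-fold, picked for that difference, summed to 2539 CPM in Lat-KO DN3 γδ− and 2944 CPM in Lat-KO DN3 γδint, and to 1002, 452, 288, 807 and 1379 CPM in the WT libraries in the order given for the interferon genes. In B cells the sums were 4620 and 6082 CPM for Lat-KO and 3410, 3187, 2628, 2861 and 3537 CPM for WT, so the Lat-KO pools were again the highest. H2-K1 in the barcodes with at least 7 core cycling UMIs had 1002 and 390 CPM, and in those under 7 it had 1058 and 405 CPM, so that its ratio was close in both kinds of barcode.

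Other genes led the ranking outside those lists. Ifi204, an interferon-inducible DNA-binding protein, had the highest log2 ratio of the genes named by rank, at 11.1 CPM in Lat-KO and 0.924 CPM in WT (3.59, 3.15 to 4.05), and Gm4951 followed with 14.9 and 1.28 CPM (3.55). Uaca had 57.3 and 8.02 CPM (2.84) and Mpzl2, an adhesion molecule of the thymus also called EVA1, had 268 and 50.8 CPM (2.40). In Lat-KO DN3 γδint they had 20.7 CPM (Ifi204), 64.9 CPM (Uaca) and 238 CPM (Mpzl2), against 8.71 CPM at most for Uaca in any WT library. Fbp1, which encodes the gluconeogenic enzyme fructose-1,6-bisphosphatase, had 22.7 and 3.81 CPM (2.57), Tnfrsf8, which encodes CD30, had 21.4 and 3.76 CPM (2.51), and Rnf182 had 18.6 and 2.60 CPM (2.84). Poll, a DNA polymerase of non-homologous end joining, had 15.4 and 3.05 CPM (2.34) and Pdgfa, a growth factor, had 22.2 and 4.46 CPM (2.31). None of these had enough B cell UMIs for the check.

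On the lower side, the named genes were Lat, Trdc and Nr4a1, followed by 0610009E02Rik at 2.93 and 14.3 CPM (-2.28) and Hoxa7. Dqx1 had 12.9 and 39.6 CPM (-1.62), Vegfa, the vascular growth factor, had 5.22 and 15.9 CPM (-1.61), and Mfsd4a had 14.9 and 45.2 CPM (-1.60), with a B cell ratio of -1.09 (-2.24 to 0.02). Bambi, a decoy receptor of the TGF-β family, had 8.59 and 23.5 CPM (-1.45), and Hist1h3e, a histone H3 gene, had 6.04 and 15.9 CPM (-1.40). Under the B cell pool as ruled, the list also took in Ccl4, a chemokine, at 15.9 and 40.0 CPM (-1.33) and Clec12a, a C-type lectin, at 12.2 and 30.8 CPM (-1.33).

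The remaining lists gave few or no genes past 2-fold. Among 12 measured p53 targets there was none (median 0.24), and none among 18 quiescence genes (0.25), 29 genes of ribosome biogenesis and Myc (0.02), 15 of glycolysis (0.29), 10 of egress, homing and adhesion (0.20) and 24 of stress and dissociation (0.08). Beside 2.85% higher over all genes, the BCL2 family had 1 of 10, Bak1 (median 0.02), and sterol and fatty-acid synthesis had 1 of 30, Dhcr7, the last enzyme of cholesterol synthesis, at 114 and 55.1 CPM (1.05), with a median of 0.36. Mcl1, an anti-apoptotic BCL2 family member, had 175 and 259 CPM (-0.57) and B cells had the same ratio to within their interval (-0.56, -0.88 to -0.24).

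Genes near the edited loci were listed apart. Within 5 Mb of Lat 85 genes were measured, 5 were past 2-fold higher and 1 lower (7.06%), and the median was 0.33. Within 1 Mb there were 42, with 3 higher and 1 lower (9.52%), and on the rest of chromosome 7 there were 492, with 15 higher and 1 lower (3.25%). Spns1, a lysosomal lipid transporter whose gene lies 490 bases upstream of Lat, had 54.0 and 12.3 CPM (2.14, 2.01 to 2.27). Spns1 had 54.2 CPM in Lat-KO DN3 γδint and 10.5 to 15.3 CPM in the 5 WT libraries, so both Lat-KO libraries lay above all WT ones. Atp2a1, a calcium pump of the sarcoplasmic reticulum at 126445858 to 126463108 on chromosome 7, was the lower one with 6.00 and 15.4 CPM (-1.36).

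The other higher genes near Lat were Kif22, Plk1, Mvp and Bckdk. The first pair are mitotic genes, and B cells shared the differences of Mvp (thymocytes 1.34, B cells 2.84) and Bckdk (1.04 and 1.70). Within 5 Mb of Trdc, 63 genes were measured and 1 was past 2-fold, Pck2, higher (1.59%), which B cells shared at 1.10 (0.04 to 2.28). The rest of chromosome 14 had 7 higher and 1 lower of 212 (3.77%). Spns1 was thus the gene nearest to an edited locus that differed, and what part of its difference belongs to the edited allele cannot be told apart from the loss of LAT.

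**Figure D5:**
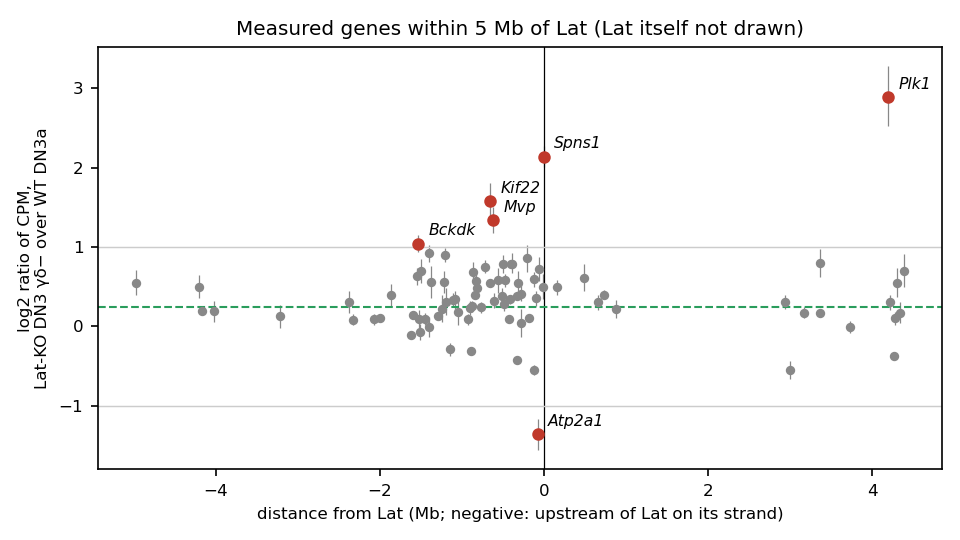
Log2 ratio of Lat-KO over WT of the measured genes against their distance from Lat (Mb, negative upstream of Lat), with 95% intervals of counting error, the genes past 2-fold named and Lat itself left out. Spns1, 490 bases upstream, stands at 2.14 and the median over the 85 genes within 5 Mb is 0.33.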

How the data were processed

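Thymocytes of a Lat-KO DN3 γδ− and a WT DN3a library were compared, with the 5 other libraries shown for levels only. The deposited files hold UMI counts per gene and barcode, made by the authors with Cell Ranger (4.0.0 in the file headers, while the processing notes name 5.0.1) on mm10 with the edited Trdc reporter added as a feature, for the barcodes called cells, without scaling or correction. Each file lists 32286 features. Positions came from GENCODE vM21.

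Counts were summed per gene over the chosen barcodes and scaled to CPM (Python 3.11.15, numpy 2.4.6, pandas 2.3.3, scipy 1.17.1). Log2 ratios are Lat-KO over WT with exact conditional binomial 95% intervals, levels have exact Poisson intervals and shares exact Clopper-Pearson intervals, all covering counting error only. A gene at 0 entered as a floor of 3 counts per library. A gene was measured with at least 10 CPM in 1 of the 2 libraries and past 2-fold with a log2 ratio of at least 1 or at most -1. With 1 library a side no test was run. B cells with more than 2 UMIs of 4 T cell genes were left out of the check of each gene, a choice made after the pools had been seen, and a gene needed 20 UMIs in both pools together.

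Alternatives were TMM scaling (edgeR 4.0.16, R 4.3.3), scaling to the B cells, at least 200 genes and at most 15% mt- UMIs per barcode, 0 or up to 4 B cell UMIs, other CPM minimums, non-cycling barcodes, thinning to 3000 UMIs, totals without mt-, ribosomal protein and rRNA genes, and doublet removal. Scrublet (scanpy 1.11.5) marked 1 barcode in each library (0.0127% and 0.0139%), which is too few to be a working call, so no doublet was removed and an alternative left out the 8% with the highest scores.

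Named genes were Lat, Trdc and the reporter, the 15 highest and 15 lowest by log2 ratio (at least 10 UMIs in each library, without mt- and ribosomal protein genes and those that B cells shared), the 10 highest and lowest among non-cycling barcodes, and of each list up to 6 members past 2-fold or 4 by level. Other genes of the lists or near Lat are named for their role and were chosen after their values were seen. There were 19 gene lists and 9 marker lists. The members and the lists were chosen with earlier results of these data known.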

Additional observations from a re-analysis of the deposited data

How the results depend on the processing

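With 1 library a side no replicate could be left out. No paired analysis was possible because the 2 groups hold 1 library each and the result comes from no test. Genes past 2-fold numbered 230 higher and 48 lower. They became 130 and 97 with TMM scaling (5 signal-induced genes lower), 136 and 92 when centred on the B cells of the rule (again 5), 57 and 20 at a minimum of 50 CPM (signal-induced 0 lower, S phase 0, G2 and M phase 4, interferon 5), and 996 and 739 with no minimum (signal-induced 1 higher and 11 lower, Notch 2 higher, S phase 2, G2 and M phase 32). Totals without mt-, ribosomal protein and rRNA genes gave 187 and 103. At 200 genes and up to 15% mt- UMIs a barcode S phase had 2 higher, beside 226 of 8070 over all genes. Without cycling barcodes S phase and G2 and M phase had 0, with 17 of the 20 G2 and M genes then under the CPM minimum, and Ccna2 (-0.10) and Rrm2 (-0.45) changed sign. Under 7 core UMIs the 2 lists also had 0 (15 of the 20 under the minimum), and Rrm2 was at -0.34. Core genes define those barcodes. With thinning G2 and M phase had 11, beside 261 higher of 8091 over all genes. Other causes were not tested.

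The cycling share of Lat-KO and WT was 11.0% and 7.32% at 4 core UMIs, 4.77% and 1.78% at 7, 57.6% and 52.0% at 5000 UMIs a barcode, and 99.3% and 98.7% with the S and G2/M lists together, where B cells had 88.0% and 82.9% as well. In the check, 82 higher and 22 lower genes lay on the same side in B cells of the rule, 34 and 14 without barcodes holding T cell UMIs, and 37 higher ones with the latter at 200 genes. Fewer B cell UMIs leave fewer genes to check, 86 against 182. Of 1170 values of named genes under an alternative, 826 moved by less than their counting interval, 341 moved further and 3 of genes past 2-fold changed sign. Counting genes of any size 25 values of 9 genes changed sign, 7 of them with TMM scaling, and those under 2-fold had log2 ratios of at most 0.18. Of 494 list counts 443 stayed within 1.5 times and 51 did not. The limits of 7 core UMIs and up to 4 B cell UMIs, the changed totals and centring on the cleaned B cells (189 and 61) were chosen after seeing the data.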

Other observations

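Transcripts of the sex-linked genes showed cells of both sexes in both pools. Xist had 1036 CPM in Lat-KO and 1271 CPM in WT (log2 ratio -0.29) and was seen in 42.6% and 53% of barcodes at 3000 UMIs. Ddx3y, on the Y chromosome, had 55.5 and 40.6 CPM (0.45), with log2 ratios of 0.51 for Uty, 0.47 for Kdm5d and 0.10 for Eif2s3y.

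Barcodes with 2 to 4 UMIs of the 3 B cell genes were counted neither as thymocytes nor as B cells. There were 1329 in Lat-KO and 831 in WT. With them added, 225 genes were past 2-fold higher and 49 lower.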
